A study of Mus musculus with 6 samples.

Results

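The genes described here are 40 genes of the lysosome, taken by symbol from a list of acid hydrolases and their cofactors, lysosomal membrane proteins, subunits of the proton pump and the MiT/TFE transcription factors, without the cathepsins. All 40 were found among the 19973 genes of the table, and all 40 passed the filter of a mean of at least 10 normalized counts over the 6 libraries. They are grouped as 9 glycosidases, 3 sulfatases, 4 lipid hydrolases, 3 lipid-binding and activator proteins, 2 peptidases with progranulin, 9 membrane proteins, 6 V-ATPase genes and 3 MiT/TFE regulators. RNA came from macrophages of male C57BL/6 mice, an inbred laboratory strain, that were 18 months (old) or 2 months (young) of age, with 3 libraries of each age. Mice of both ages had been given 200 µg of zymosan A, a yeast cell wall preparation that starts a peritoneal inflammation, and their peritoneal cells were collected by lavage 72 hours later. In both groups the cells were kept overnight in medium with L-cell supernatant, a source of the macrophage growth factor CSF1, freed of unattached cells, and held for 6 hours in phosphate-buffered saline as vehicle. Whether a library is 1 of the 3 mice per group that the labels mention or 1 of the triplicate runs of a mouse is not stated. The p-values therefore cover only differences between libraries, which may be technical.

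Lysosomes are acid compartments in which macrophages digest what they engulf. The V-ATPase pumps protons into the lumen, soluble hydrolases cut sugars, sulfate esters, lipids and proteins there, and a coat of glycosylated membrane proteins shields the limiting membrane and carries transporters and channels. The factors Tfeb, Tfe3 and Mitf bind E-box sequences in the promoters of many of these genes, in a palindrome known as the CLEAR element, and stay in the cytosol while the kinase mTORC1 is active.

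More lysosome genes were higher in old than in young libraries, with the largest differences in the alternative pump subunit Atp6v0d2 (5.69-fold), the acid lipase Lipa (2.24-fold), the pump subunit Atp6v1b2 (2.10-fold) and the sphingolipid activator precursor Psap (1.92-fold). The sulfatase Arsb went the other way and was 2.37-fold higher in young. Of the 40 members 25 were higher in old, 2 were lower and 13 did not pass (limma, Benjamini-Hochberg adjusted p under 0.05 over all genes tested). Over all 11795 genes tested, 17.9% were higher and 17.6% lower. The median log2 fold change, old minus young, was 0.37 over the members and 0.00 over all genes tested. Every old library lay above every young one for 27 members and below for 2, against 24.0% and 23.6% of all genes tested. Of the members higher in old 3, Atp6v0d2, Lipa and Atp6v1b2, had a log2 fold change of at least 1, against 3.93% of all genes tested. Summed over the 40 members, normalized counts made up 2.76%, 2.77% and 2.53% of all counts in old replicates 1 to 3 and 1.84%, 1.85% and 2.02% in young replicates 1 to 3, without overlap.

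Most general markers of macrophages were also higher in old libraries. Of 8 macrophage markers 5 were higher in old and 1 was lower, with a median log2 fold change of 0.35, close in size to that of the lysosome genes. Among them Csf1r, the receptor for CSF1, rose by 0.26 on the log2 scale, the integrin gene Itgam by 0.37 and the co-receptor gene Cd14 by 0.89. In bulk RNA, more macrophages in a culture and more of a transcript per macrophage cannot be told apart. An alternative chosen after seeing the data therefore set the mean log2 level of these 8 markers equal in every library, which moved the median of all genes tested by -0.30. On that scale 13 members were higher in old and 11 lower, against 25 and 2 before, and over all genes 15.8% of calls were toward higher values, against 50.4% before. Of all genes tested 7.91% were then called higher and 42.2% lower, and of the members 32.5% and 27.5%. The 12 members that were higher on the authors' scaling and lost that call here were Gla, Ids, Asah1, Smpd1, Gm2a, Tpp1, Lgmn, Lamp1, Mcoln1, Cln3, Atp6v1h and Tfeb. The 12 members that kept their call for higher values under this and the other 18 alternatives were Hexa, Man2b1, Naglu, Lipa, Npc2, Psap, Cd63, Cd68, Atp6v0d2, Atp6v1b2, Atp6ap1 and Mitf. Arsb kept its call for lower values under all 19.

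**Figure D1:**
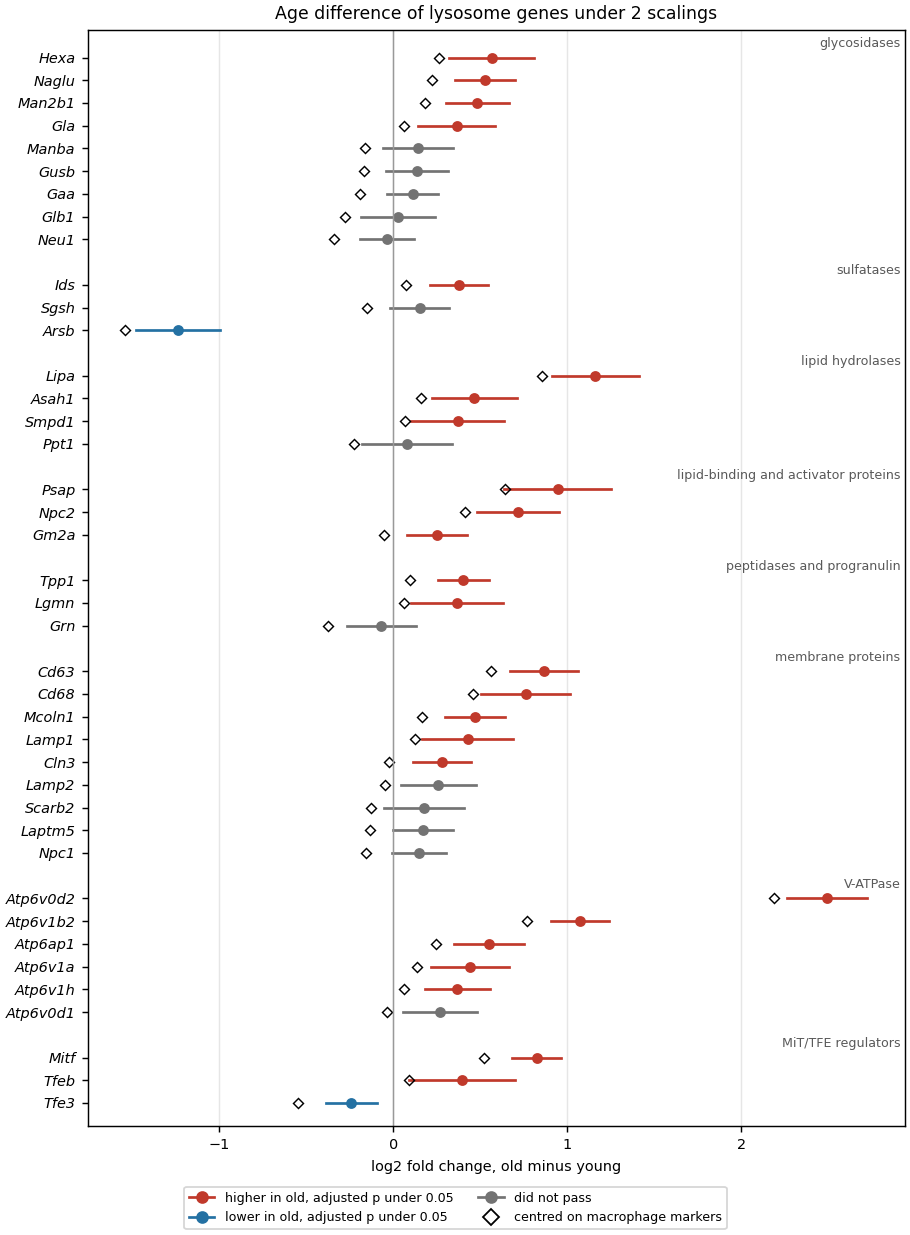
Log2 fold change, old minus young, of the 40 members by class, with bars for the 95% confidence interval from limma and colour for the call. Filled points are relative to the authors' size factors, where 25 members were higher and 2 lower, and open diamonds are relative to 8 macrophage markers, where 13 were higher and 11 lower.

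Read totals ran from 8163000 to 13008000 per library. The libraries numbered 3 stood apart in both groups. Old replicate 3 had the lowest value of its group for 34 of the 40 members (48.0% of all genes tested) and young replicate 3 the highest for 35 (45.8% of all genes tested). As a result the groups lay closest to each other in these libraries. The median member lay 0.41, 0.42 and 0.23 above the young mean on the log2 scale in old replicates 1, 2 and 3, and at -0.07, -0.04 and 0.11 in young replicates 1, 2 and 3. Macrophage markers gave nearly the same medians, 0.39, 0.41 and 0.24 in old and -0.10, -0.03 and 0.11 in young libraries. Old replicate 3 also had 1.34% of its reads on ribosomal RNA genes, against 0.0177% to 0.154% elsewhere. Without both libraries numbered 3, 35 members were higher and 2 lower, and the share of all genes called higher rose to 30.3%.

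Markers of other cells were also unequal. Summed over 8 B cell markers, normalized counts were 1632 to 3251 in old and 122 to 127 in young libraries, and all 8 passed as higher. For 9 mast cell markers the sums were 566 to 638 and 50.3 to 72.8, and 5 of 6 tested were higher. Those of 8 T and NK cell markers were 41.9 to 65.8 and 4.23 to 9.65. Of the neutrophil markers 4 of 8 had a row in the table used here, and Cxcr2 and Camp were at or near 0 in every library, while S100a8 (591 ± 74.0 against 214 ± 27.6 normalized counts) and Mmp8 (8169 ± 976 against 285 ± 37.6; SD, n = 3 each) were higher in old. Markers listed for monocyte-derived or small peritoneal macrophages summed to 1114 to 1379 in old and 611 to 624 in young libraries, and 3 of 4 tested were higher, the integrin gene Itgax 2.81-fold, the transcription factor gene Irf4 6.09-fold and the monocyte antigen gene Ly6c2 10.7-fold, while the chemokine receptor gene Ccr2 did not pass. Markers listed for large peritoneal macrophages summed to 269 to 361 in old and 241 to 276 in young libraries. Of 5 tested 2 were higher, Selp and Cxcl13, both at low counts, and 0 were lower. Gata6, Icam2 and Alox15 did not pass. Dendritic cell markers summed to 35.6 to 52.6 in old and 15.2 to 22.8 in young libraries. Markers of mesothelial cells or fibroblasts summed to 512 to 592 in old and 558 to 694 in young libraries. The macrophage list summed to 335368 to 418047 in old and 269855 to 342885 in young. Most of this sum was Lyz2, with means of 348663 in old and 268077 in young, which did not pass. Csf1r had 15854 to 20131 normalized counts, so macrophage markers other than Lyz2 were also abundant in all 6 libraries. The part of other cells or macrophage subsets in the lysosome results was not tested.

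**Figure D2:**
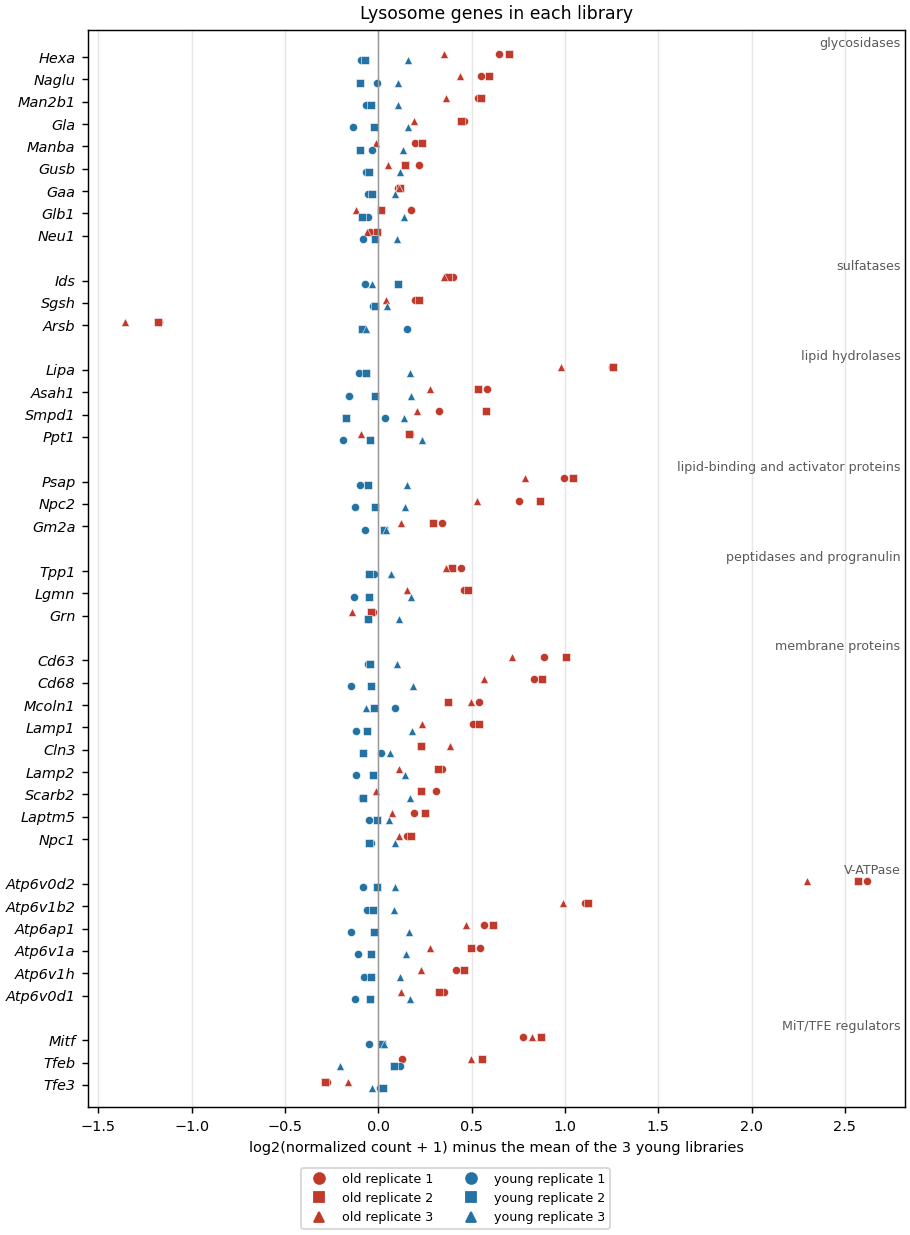
Log2(normalized count + 1) of the 40 members in each of the 6 libraries, minus the mean of the 3 young libraries, by class. Triangles mark the libraries numbered 3, which lie lowest among old for 34 members and highest among young for 35.

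The regulators of the program did not move together. Mitf had 1429, 1524 and 1473 normalized counts in old replicates 1 to 3 and 806, 844 and 851 in young replicates 1 to 3. All old libraries stood well above all young ones, 1.77-fold in the means and 0.82 ± 0.06 on the log2 scale (SE; adjusted p = 1.04e-05 in limma). Mitf is known from pigment cells, mast cells and osteoclasts as well as macrophages, and the mast cell markers above were higher in the same libraries, whose part was not tested. Tfe3 had 1104, 1096 and 1195 normalized counts in old and 1344, 1360 and 1308 in young libraries. It was the only regulator with lower values in old, without overlap, at -0.24 ± 0.06 (adjusted p = 0.0174, and 0.0567 to 0.0845 without old replicate 1 or 2 or young replicate 1 or 2). Tfeb had 246, 332 and 318 in old and 244, 239 and 195 in young libraries. Its groups nearly touched, since old replicate 1 lay just above young replicate 1. The log2 fold change of 0.39 ± 0.14 passed narrowly (adjusted p = 0.0483), and the call was lost under 13 of 19 alternatives, among them edgeR (0.0519), DESeq2 (0.0567) and the fit without old replicate 3 (0.0545).

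Per kb of exon, Mitf had the highest level of the 3 regulators in old and Tfe3 in young libraries. Mitf took 58.6%, 58.2% and 56.2% of the summed level per kb in old and 40.9%, 41.9% and 43.9% in young libraries. The means were 57.7% ± 1.28 and 42.2% ± 1.53 (SD, n = 3 each), and the groups did not overlap (2-sided exact permutation p = 0.1, the smallest that 3 against 3 can give). Tfe3 held 29.6% ± 1.41 in old and 45.3% ± 0.261 in young libraries, while Tfeb held 12.7% ± 1.47 and 12.5% ± 1.33. Tfec, the remaining relative of the family, had 353 ± 15.5 and 277 ± 36.4 normalized counts (1.28-fold, adjusted p = 0.0272).

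**Figure D3:**
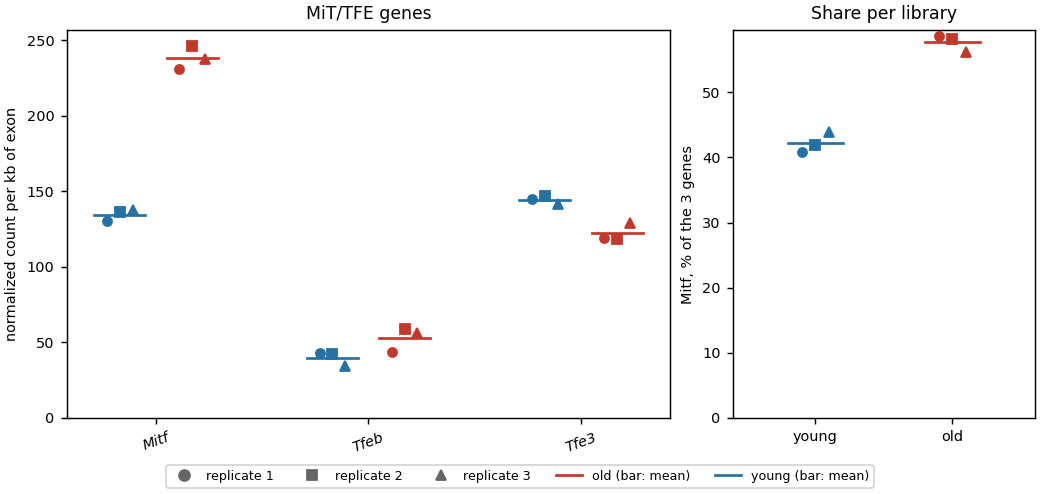
Normalized counts per kb of exon of Mitf, Tfeb and Tfe3 in each library (left, bars at the group mean) and the share of Mitf in the 3 genes (right). Mitf lies between 231 and 246 per kb in old and 130 and 137 in young libraries, and Tfe3 between 118 and 129 in old and 141 and 147 in young.

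Promoters of the members were searched for the E-box core CACGTG and longer forms of it, and most of those searched held no match. RefSeq windows from 250 bases before to 50 after a gene start, on GRCm38.p6, were matched to 35 of the 40 members by symbol, leaving out Asah1, Atp6v0d2, Atp6v1b2, Atp6v1h and Npc1. The E-box core CACGTG was found in 11 of 35 members (31.4%) and in 8.09% of 27025 genes with such a window, counting both strands and any listed start of a gene. The longer form TCACGTGA was found in 5 members (14.3%) against 1.12% of all genes, and that form with G before it and C after it, the full palindrome, in 1 member, Cln3, against 0.37%. Each longer form contains the shorter ones. Among 101 genes of the wider lysosome lists 24 (23.8%) held the core. Of the members with TCACGTGA, Atp6v0d1, which did not pass, is not shown, and its core runs across the start from base -3. The windows below hold TCACGTGA upstream of the start, except Lamp1, shown because it had the most copies of the core, 4. All genes shown were higher in old. The windows end before the start site and are written 5′ to 3′ on the gene's strand, with the core in capitals.
Cln3 (chr7:126583335-126583402, minus strand): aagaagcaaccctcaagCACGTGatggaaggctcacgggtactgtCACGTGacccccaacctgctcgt
Mcoln1 (chr8:3500431-3500496, plus strand): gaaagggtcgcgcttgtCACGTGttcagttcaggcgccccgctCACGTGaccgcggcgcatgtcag
Atp6v1a (chr16:44139368-44139407, minus strand): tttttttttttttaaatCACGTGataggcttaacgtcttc
Gla (chrX:134601177-134601249, minus strand): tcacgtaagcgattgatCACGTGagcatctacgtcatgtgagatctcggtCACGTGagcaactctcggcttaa
Lamp1 (chr8:13159083-13159160, plus strand): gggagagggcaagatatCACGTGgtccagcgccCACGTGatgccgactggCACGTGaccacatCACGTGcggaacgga

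Members with the core differed little in age response from those without. Of the 11 with the core 7 were higher in old and 0 lower, namely Naglu, Mcoln1, Atp6v1a, Lamp1, Lgmn, Gla and Cln3, whereas Atp6v0d1, Sgsh, Gaa and Glb1 did not pass. Of the 24 without it 14 were higher and 2 lower. The median log2 fold change was 0.36 with and 0.37 without the core, and no test was made of this. Neither of the members with a promoter window that rose most, Lipa and Psap, held a match, which says only that these letters were not in these windows. A match is a description of the sequence and not of binding.

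**Figure D4:**
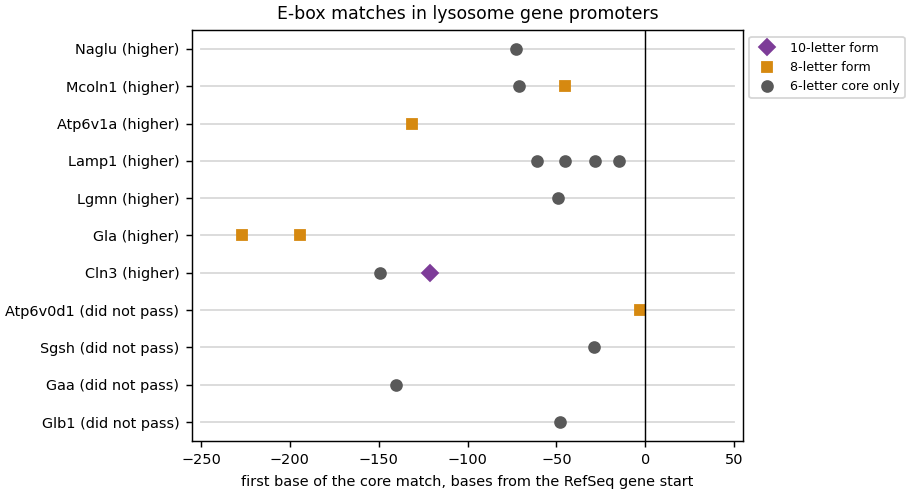
Position of each CACGTG match in the promoter windows of the 11 members that hold one, in bases from the RefSeq gene start, ordered by age difference. Of these genes 7 were higher in old on the authors' scaling and 4 did not pass; Lamp1 has 4 matches and Cln3 holds the longest form.

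Most of the proton pump genes rose. The V-ATPase has a cytosolic V1 part that splits ATP and a V0 part in the membrane that carries protons, and the d subunit links the rotor of V0 to V1. Of the 6 members 5 were higher in old and 0 lower, against 17.9% and 17.6% of all genes tested. Their median log2 fold change was 0.50, and relative to the macrophage markers Atp6v0d1 had a negative value. Mammals have alternative d subunits, Atp6v0d1 in most tissues and Atp6v0d2 in osteoclasts, kidney and some macrophages. Atp6v0d2 had 943, 909 and 753 normalized counts in old and 144, 152 and 162 in young libraries. Even the lowest old library was far above the highest young one. The difference of 5.69-fold in the means was 2.50 ± 0.10 on the log2 scale (SE; adjusted p = 2.31e-07 in limma), and it stayed between 2.19 and 2.64 under all 19 alternatives. Atp6v0d1 had 2480, 2431 and 2117 against 1781, 1886 and 2184, with young replicate 3 inside the old range. At 0.27 (95% confidence interval 0.05 to 0.48) it did not pass (adjusted p = 0.0534). It was called higher under 7 of 19 alternatives, among them DESeq2 (adjusted p = 0.0267), and was -0.04 on the macrophage marker scale.

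Per kb of exon the d1 gene remained the more abundant of the pair at both ages. Atp6v0d2 took 20.1%, 19.8% and 19.0% of the level of both d genes in old and 5.06%, 5.05% and 4.68% in young libraries. The mean share was 19.6% ± 0.543 in old and 4.93% ± 0.218 in young (SD, n = 3 each; 2-sided exact permutation p = 0.1, the smallest possible). Of 9 markers listed for osteoclasts or multinucleated macrophages, which include Atp6v0d2 itself, 4 of 6 tested were higher in old and 1 was lower. The protease gene Ctsk was 5.30-fold, the fusion gene Dcstamp 2.11-fold and the phosphatase gene Acp5 1.29-fold higher in old. The protease gene Mmp9 was lower at -0.53, and the transcription factor gene Nfatc1 did not pass at -0.04. Ocstamp stayed under 6 counts, and Calcr and Oscar had no row.

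Subunits of the V1 part also differed in degree. Atp6v1b2, the B subunit that forms the catalytic ring with subunit A, had 8395, 8479 and 7727 normalized counts in old and 3735, 3823 and 4130 in young libraries. It was 2.10-fold higher in old with wide separation (1.07 ± 0.07, adjusted p = 5.02e-06). Its partner in the ring, Atp6v1a, rose less, at 0.44 (1.36-fold, adjusted p = 0.00781). Atp6v1a lost its call under quantile normalization (adjusted p = 0.0839) and under the replicate block. Atp6v1h, the regulatory H subunit, was 1.29-fold higher, at 0.37 (adjusted p = 0.00745), and lost its call under the replicate block and on the macrophage marker scale (0.06). Atp6ap1, an accessory protein of V0 assembly, had 5209, 5383 and 4867 in old and 3179, 3459 and 3944 in young libraries, without overlap (1.46-fold, adjusted p = 0.00117). Over the whole pump, including 12 further subunit genes tested, 12 of 18 were higher in old, 0 were lower and 6 did not pass. Of all genes tested 17.9% were higher and 17.6% lower. The further genes with the smallest adjusted p were Atp6v1e1 in the peripheral stalk (1.63-fold), the small V0 subunit Atp6v0e (1.58-fold) and Atp6v0b of the rotor ring (1.46-fold).

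**Figure D5:**
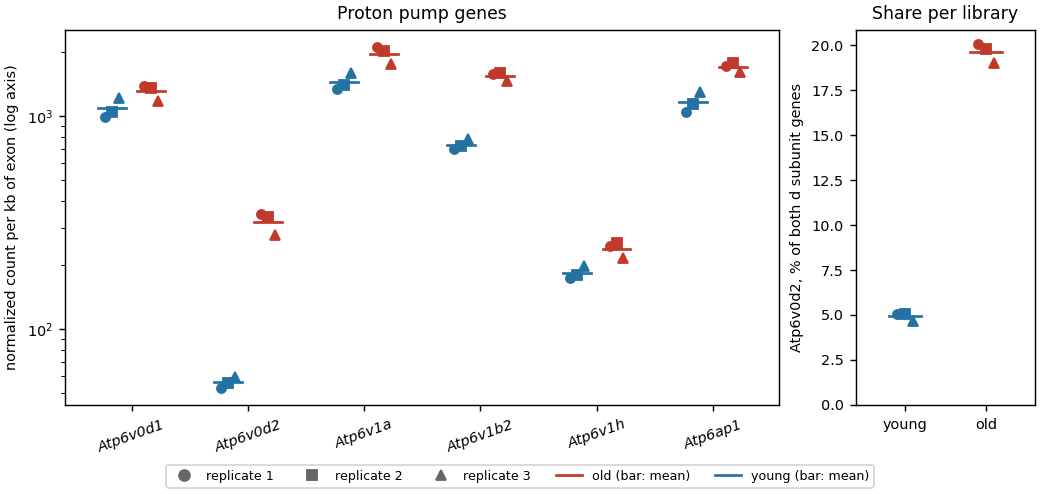
Normalized counts per kb of exon of the 6 pump genes in each library on a log axis (left, bars at the group mean) and the share of Atp6v0d2 in the 2 d subunit genes (right). Atp6v0d2 lies between 277 and 347 per kb in old and 53.0 and 59.7 in young libraries, below Atp6v0d1 in every library.

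Membrane proteins were higher in old in 5 of 9 cases and lower in 0, against 17.9% and 17.6% of all genes tested. The class median was 0.28 on the authors' scaling and -0.02 on the macrophage marker scale. The tetraspanin gene Cd63, found on late endosomes and secretory granules, had 1695, 1839 and 1505 normalized counts in old and 882, 890 and 981 in young libraries. Every old library exceeded every young one by a wide margin (1.83-fold, 0.87 ± 0.09, adjusted p = 5.69e-05). Mast cells also carry CD63, and their markers were higher in the same libraries; their part in this difference was not tested. Cd68, the macrosialin gene used as a macrophage marker, had 13121, 13550 and 10910 against 6665, 7159 and 8367, again without overlap (1.69-fold, adjusted p = 0.00071). Mcoln1, the calcium channel mucolipin 1, had 792, 707 and 768 against 580, 536 and 520 (1.39-fold, adjusted p = 0.00128). The abundant coat protein gene Lamp1 was 1.35-fold higher at 0.43, but old replicate 3 with 16906 and young replicate 3 with 16256 were close to each other, and the call was lost with either of the libraries numbered 1 or 2 of either age left out. Cln3, which is mutated in juvenile Batten disease, was 1.21-fold higher (adjusted p = 0.0169). It lost its call without young replicate 2, and it shares 7.65% of its exon bases with Apobr on the opposite strand, which had 1106 ± 52.6 against 630 ± 32.6 normalized counts (SD, n = 3 each).

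The other 4 membrane genes did not pass. They were the coat protein gene Lamp2 (0.26), the receptor Scarb2 that carries glucocerebrosidase to lysosomes (0.18), Laptm5 of blood cells (0.17) and the cholesterol exporter Npc1 (0.15). Their 95% confidence intervals reached up to 0.47, 0.41, 0.34 and 0.30. Old and young libraries of Laptm5 and Npc1 did not overlap. On the macrophage marker scale all 4 had negative values, between -0.05 and -0.16, with Laptm5 and Npc1 called lower, as were 42.2% of all genes tested.

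Glycosidases cut sugars from glycoproteins, glycolipids and glycosaminoglycans. Of 9 members 4 were higher in old and 0 lower, against 17.9% and 17.6% of all genes tested. The class median was 0.14, or -0.16 relative to the macrophage markers. Hexa, the alpha chain of the hexosaminidase that degrades GM2 ganglioside, had 6771, 7031 and 5517 normalized counts in old and 4060, 4127 and 4838 in young libraries. The old range lay entirely above the young (1.48-fold, 0.57 ± 0.11, adjusted p = 0.0031). Naglu, which removes N-acetylglucosamine from heparan sulfate, had 1304, 1340 and 1205 against 886, 830 and 955 (1.44-fold, adjusted p = 0.000618). Man2b1, the acid alpha-mannosidase, had 7110, 7200 and 6328 against 4689, 4787 and 5279 (1.40-fold, adjusted p = 0.00145). Gla, the alpha-galactosidase that is deficient in Fabry disease, was 1.29-fold higher (adjusted p = 0.018) and lost its call without any 1 of the libraries numbered 1 or 2.

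The 5 glycosidases that did not pass were the beta-mannosidase Manba (0.14), the beta-glucuronidase Gusb (0.14), the acid maltase Gaa (0.11), the beta-galactosidase Glb1 (0.02) and the sialidase Neu1 (-0.04). Neu1 had 1326, 1362 and 1308 normalized counts in old and 1291, 1348 and 1464 in young libraries, which overlapped. For Glb1, which forms a complex with Neu1 in lysosomes, the interval ran from -0.19 to 0.24. Hexa shares 12.8% of its exon bases with Tmem202 on the opposite strand, whose counts did not exceed 25.1. Without knowledge of strand such reads cannot be told apart.

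The 3 sulfatases went in different directions. Arsb, which cuts sulfate from dermatan sulfate and chondroitin sulfate, had 125, 125 and 110 normalized counts in old and 317, 268 and 271 in young libraries. The old libraries were all below the young by a wide gap, at -1.24 ± 0.11 on the log2 scale (SE; adjusted p = 2.42e-05 in limma), with a range of -1.54 to -1.16 over the alternatives. Its exons share 32.3% of their bases with Gm26527 and 7.67% with Gm47210, both on the opposite strand. Gm47210 had at most 1.20 counts in a library. Gm26527, the larger overlap, had no row, so its level is not known here. Ids, which acts on heparan and dermatan sulfate, had 687, 673 and 663 in old against 494, 560 and 507 in young libraries and was 1.30-fold higher without overlap (adjusted p = 0.00359), with 0.07 and no call on the macrophage marker scale. Sgsh, the heparan sulfamidase, did not pass at 0.15 (95% confidence interval -0.02 to 0.32). Arsg, a sulfatase of the wider list, was lower in old with 70.4 ± 8.23 against 94.6 ± 4.65 (adjusted p = 0.0387).

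Among the lipid hydrolases 3 of 4 were higher in old and 0 lower, against 17.9% and 17.6% of all genes tested. Lipa, the acid lipase that frees cholesterol and fatty acids from lipoprotein esters, had 22053, 22129 and 18238 normalized counts in old and 8617, 8865 and 10402 in young libraries. All old libraries lay above all young ones (2.24-fold, 1.16 ± 0.11, adjusted p = 4.12e-05), and relative to the macrophage markers the difference was 0.86. Asah1, the acid ceramidase, had 5391, 5211 and 4364 against 3220, 3559 and 4057 (1.38-fold, adjusted p = 0.00828). Smpd1, the acid sphingomyelinase, was 1.30-fold higher (adjusted p = 0.0365), a call that 8 of 19 alternatives removed. The palmitoyl thioesterase Ppt1 had 1827, 1816 and 1522 in old and 1424, 1572 and 1907 in young libraries, which overlapped, and did not pass at 0.08 (interval -0.18 to 0.34).

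Proteins that present lipids to these enzymes were higher in old in all 3 cases, against 17.9% of all genes tested. Psap, the precursor of the saposins, was the most abundant member per kb of exon at both ages, with 98101, 101469 and 84846 normalized counts in old and 45866, 47242 and 54776 in young libraries. The groups were clearly apart (1.92-fold, 0.94 ± 0.14, adjusted p = 0.000596). Npc2, which hands cholesterol to the exporter Npc1, had 9424, 10178 and 8066 against 5111, 5513 and 6174, also without overlap (1.65-fold, adjusted p = 0.000653). Npc1 itself was at 0.15 and did not pass. Gm2a, the activator that lifts GM2 ganglioside to hexosaminidase A, was 1.19-fold higher (adjusted p = 0.0292). It lost its call without any 1 of the libraries numbered 1 or 2 and was at -0.05 relative to the macrophage markers.

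Of the peptidases, Tpp1, a tripeptidyl peptidase, had 3756, 3640 and 3557 normalized counts in old and 2721, 2671 and 2901 in young libraries. Its groups were far apart for a difference of 1.32-fold (0.40 ± 0.06, adjusted p = 0.00115), which was 0.10 and not called on the macrophage marker scale (adjusted p = 0.184). Lgmn, an asparaginyl endopeptidase that activates other lysosomal proteases, had 16102, 16360 and 13020 against 10714, 11319 and 13246, so that old replicate 3 fell below young replicate 3 (1.29-fold, adjusted p = 0.0371). Its call was lost under 8 of 19 alternatives. Progranulin, encoded by Grn and a growth factor precursor that is split into granulins in lysosomes, had 16934, 16758 and 15637 in old and 16615, 16584 and 18616 in young libraries. Grn did not pass at -0.07 (interval -0.27 to 0.13) and was -0.37, called lower, relative to the macrophage markers.

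Wider lists of lysosome genes, without any member, gave 51 genes higher and 9 lower of 119 tested, with a median log2 fold change of 0.19. These were 42.9% and 7.56% of the genes tested in these lists, against 17.9% and 17.6% of all genes tested. Among other soluble hydrolases 13 of 28 (46.4%) were higher and 3 (10.7%) lower. The exonuclease Pld3 averaged 3724 ± 209 normalized counts in old and 1934 ± 166 in young (1.93-fold, adjusted p = 2.06e-05), while its relative Pld4 was 1.22-fold higher in young (adjusted p = 0.0225). The hyaluronidase genes Hyal2 (1.86-fold) and Hyal1 (3.39-fold) were higher in old, though Hyal1 shares 50.8% of its exon bases with Naa80 on the same strand. Among other membrane proteins and transporters 17 of 31 (54.8%) were higher and 1 (3.23%) lower. Mcoln2, a relative of Mcoln1, had 938 ± 44.9 against 380 ± 18.7 (2.47-fold, adjusted p = 1.45e-06), the nucleoside transporter Slc29a3 was 1.97-fold and the chloride and proton exchanger Clcn7 1.54-fold higher in old. The lower gene was the peptide transporter Slc15a3, at -0.22.

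Of the genes that modify enzymes or sort them to lysosomes, 5 of 22 (22.7%) were higher and 1 was lower, with a median of 0.09, near the 17.9% higher over all genes. Igf2r, the large mannose 6-phosphate receptor, had 11669.6 ± 248 against 7178 ± 484 normalized counts (1.63-fold, adjusted p = 0.000102). The tethering complex genes Vps41 and Vps39 were 1.25-fold and 1.23-fold higher. Gnptab, whose enzyme adds the mannose 6-phosphate tag, was lower in old at -0.21 (adjusted p = 0.0311). Among genes of MiT/TFE control by nutrients 9 of 26 (34.6%) were higher and 4 (15.4%) lower, with a median of 0.02, against 17.9% and 17.6% of all genes. Higher in old were the Ragulator gene Lamtor4 (1.56-fold), the GTPase gene Rragd (1.54-fold) and the calcineurin subunit gene Ppp3ca (1.21-fold). Lower in old were another catalytic calcineurin subunit gene, Ppp3cb (-0.54), the nuclear exporter gene Xpo1 (-0.43) and the 14-3-3 gene Ywhab (-0.42), whose product family holds phosphorylated MiT/TFE factors in the cytosol.

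Per kb of exon the order of the members was much alike at both ages. Psap led with 34550 ± 3202 per kb in old libraries and 17964 ± 1748 in young ones (SD over 3), followed by Cd68, Lamp1, Lgmn, Grn and Hexa in that order in both. Atp6v0d2 moved from place 38 in young to place 27 in old, and Arsb held place 39 in young and the last, 40, in old. Neighbours in this order, such as Lgmn with 6526 and Lamp1 with 7254 per kb in old, often lay within their spread between libraries, which was 800 and 813 for this pair.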

How the data were processed

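The deposited signal values are gene counts that the authors scaled to each library's size factor. DESeq2 and mm10 appear in the submitters' processing notes. No source used here names the aligner, the counter or the strand setting. Dividing by the recovered step returned whole reads for 100% of values (tolerance 0.01). Only the 6 vehicle libraries were used. Genes with a mean of at least 10 were compared as log2(value + 1) with limma 3.58.1 (trend, Benjamini-Hochberg threshold 0.05); fold changes on this scale understate changes of low genes, and folds in the text are ratios of means. edgeR 4.0.16 and DESeq2 1.42.0 were run on recovered reads as alternatives, among 19 in all (scalings, filters, pseudocounts, fits and left-out libraries), and the fit was tested on simulated data. Symbols were matched for 19917 of 19973 genes. Exon lengths and overlaps came from GENCODE M21. Members and lists were chosen with earlier results of these data known. Members are named by class, and genes of the wider lists by up to 3 smallest adjusted p in each direction; Tfec, the single cell type markers and the overlapping neighbours named were chosen after their values were seen. Same-numbered libraries did not deviate together (r = -0.38, -0.36 and -0.68), so the numbers were not taken as pairs. Some genes of the wider and marker lists enter the counts but are not reported here by name.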

Additional observations from a re-analysis of the deposited data

How the results depend on the processing

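Of 27 members called, 13 kept their call under all 19 alternatives and 14 lost it under at least 1. Each of the 13 members that did not pass was called under at least 1 alternative, though not always as higher. Neu1 and Grn were called only as lower. Gusb, Gaa, Glb1, Npc1 and Ppt1 were called higher only without both libraries numbered 3, and were called lower relative to the macrophage markers. Against 4183 genes called in all, 25 members higher and 2 lower, the fit with the replicate block, whose numbers did not pair the libraries, gave 2643 genes, 15 members higher and 1 lower. That fit called 10.9% of all genes higher and 11.5% lower, against 17.9% and 17.6% in the main fit. Leaving out each library in turn gave 2940 (without young replicate 2) to 5660 genes (without old replicate 3), 18 to 30 members higher and 1 to 2 lower. In these fits 12.2% to 23.6% of all genes were called higher and 12.6% to 24.6% lower. Without both libraries numbered 3, 6960 genes were called, 30.3% of all genes higher and 28.7% lower. Quantile normalization gave 23 members higher and 4 lower, with 20.8% of all genes higher and 17.5% lower. Centring on macrophage markers, chosen after seeing the data as was the restriction to protein-coding genes, gave 13 higher and 11 lower, with 7.91% of all genes higher and 42.2% lower. It moved the median of all genes by -0.30 and turned the direction of Gusb (-0.167), Gaa (-0.194), Glb1 (-0.280), Manba (-0.165), Sgsh (-0.153), Ppt1 (-0.224), Gm2a (-0.0511), Lamp2 (-0.0457), Npc1 (-0.158), Cln3 (-0.0247), Scarb2 (-0.128), Laptm5 (-0.133) and Atp6v0d1 (-0.0382), and of the medians of glycosidases (-0.165), sulfatases (-0.153) and membrane proteins (-0.0247). Quantile normalization turned Gusb (-0.0665), Lamp2 (-0.0110), Npc1 (-0.00860) and Laptm5 (-0.131), and TMM turned Glb1 (-0.00933). With 1 library left out, Glb1 ran from -0.0515 to 0.0970, Neu1 from -0.0769 to 0.0142 and Ppt1 from -0.0134 to 0.197. Without both libraries numbered 3, Neu1 (0.0272) and Grn (0.0212) turned. The cause was not tested. With 3 libraries a group, the exact permutation test cannot go below p = 0.1.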
